A study of Mus musculus with 7 samples.

Results

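The genes described are 9 transcripts that mark naive and central memory T cells: Ccr7, Lef1, Tcf7, Klf2, S1pr1, Il7r, Satb1, Bach2 and Foxp1. They were taken by name from a deposited table of 15588 genes, which held all 9, and all 9 passed the filter on low counts that left 12929 genes for testing. The assay was RNA sequencing of CD4 T cells that had been sorted from tumours of mice carrying a liver cancer (hepatocellular carcinoma) transplanted into the liver, with the model in place for 0 days (2 libraries) or 7 days (5 libraries). Strain, genotype, age, tumour line and the tissue that served as tumour on day 0 are not stated in the labels. Both groups were sorted for CD4 T cells, and no other treatment is named. The table's columns show the day but cannot be tied to single samples, so libraries are called by the last digit of their column: 2 and 3 were from day 0, and 1, 2, 3, 5 and 6 from day 7. The labels do not state whether each library came from its own animal, and p-values therefore describe the spread among these libraries.

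A naive T cell circulates between blood and lymph nodes, entering nodes through CCR7 and leaving them by following sphingosine-1-phosphate through its receptor S1PR1. Its survival depends on IL-7, and its resting state is held by transcription factors including TCF1 (from Tcf7), LEF1, KLF2, BACH2, FOXP1 and the chromatin organiser SATB1. FOXO1 drives Klf2, Il7r and Ccr7, and KLF2 in turn drives S1pr1. Antigen encounter lowers many of these genes in effector cells, while central memory and stem-like cells keep or regain them. In tumours, T cells that keep TCF1 are known as the pool that renews the response.

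Total counts ranged from 21910818 to 28333855 per library, and the 9 genes had between 755 (Bach2, day 0 library 2) and 25055 counts (Tcf7, day 7 library 1) each, so none sat near the detection limit. Levels are in CPM (counts scaled to a common library size with TMM factors). Group values are means ± SD (n = 2 at day 0 and 5 at day 7), and positive log2 changes, given ± standard error, mean higher at day 7. Cd4 stood at 395 ± 11.2 and 687 ± 221 CPM and Cd3e, of the T cell receptor complex, at 567 ± 111 and 529 ± 35.6 CPM, so the T cell label holds at both days. The NK cell list (5 of 5 genes in the table) summed to 743 and 840 CPM at day 0 and to 255 to 505 CPM at day 7, most of it Klrb1c, which encodes NK1.1 and is also carried by NKT cells, while Ncr1 stood between 0.0416 and 16.1 CPM. The CD8 genes Cd8a and Cd8b1 summed to 204 and 175 CPM in day 7 libraries 5 and 6 and to 2.32 to 18.2 CPM in the other 5 libraries. These bulk values cannot separate fewer cells of a type from less RNA per cell.

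To show the start regions of the receptor and the chromatin gene whose levels followed each other most closely, the RefSeq promoters (GRCm38.p6, minus strand) of Il7r, at chr15:9529827-9530126, and of Satb1, at chr17:51833241-51833540 (the first of 5 listed start sites), are printed 5′ to 3′ from 250 bases before to 50 after the start. Capitals mark the ETS-type motif GGAAGT on either strand.
Il7r: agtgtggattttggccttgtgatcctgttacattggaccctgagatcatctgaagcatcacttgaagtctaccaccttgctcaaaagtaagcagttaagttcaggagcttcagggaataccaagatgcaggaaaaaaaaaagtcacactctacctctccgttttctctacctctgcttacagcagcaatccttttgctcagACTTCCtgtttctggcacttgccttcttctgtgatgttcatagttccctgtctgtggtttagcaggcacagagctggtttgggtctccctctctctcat
Satb1: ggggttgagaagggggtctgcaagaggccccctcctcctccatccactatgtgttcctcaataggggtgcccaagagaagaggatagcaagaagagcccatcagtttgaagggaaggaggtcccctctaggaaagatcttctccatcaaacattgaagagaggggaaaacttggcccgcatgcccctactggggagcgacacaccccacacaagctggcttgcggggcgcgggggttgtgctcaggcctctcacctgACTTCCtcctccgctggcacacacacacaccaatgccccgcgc
In Il7r the motif began 49 bases before the start site, and in Satb1 7 bases after it. GGAAGT occurred in 7 of the 17 windows listed for 7 of the 9 genes (in Il7r, Lef1, Satb1 and Tcf7) and in 23.8% of all 32851 windows of 300 bases. Most of the 7 were windows of Satb1 (start sites 1, 2, 3 and 5), and Lef1 and Tcf7 also had windows without the motif. The FOXO-type motif GTAAACA was found in 1 member window, of Tcf7, against 3.65% of all windows, and the TCF/LEF-type motif CTTTGA in 3, of Bach2, Foxp1 and Lef1, against 16% of all windows. Both strands were searched, and the 3 motifs do not contain one another. These matches describe the letters of the windows.

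None of the 9 genes passed the test between days. All had log2 changes between -0.61 (Il7r) and 0.49 (S1pr1), 6 positive and 3 negative, with a median of 0.07 against 0.04 over all genes tested. By edgeR's quasi-likelihood test with Benjamini-Hochberg adjustment, 0 of 9 were called at an adjusted p below 0.05, beside 1.54% of all 12929 genes. At an unadjusted p below 0.05 there were 2 higher (S1pr1 and Tcf7) and 3 lower (Klf2, Il7r and Satb1), beside 10.1% of all genes. DESeq2 called S1pr1 alone, in a fit that called 6.62% of genes. The CPM of 4 of the 9 did not overlap between days (S1pr1 higher, and Klf2, Il7r and Satb1 lower), as was so for 15.3% of all genes tested. By direction, 1 of 9 lay higher and 3 of 9 lower, against 7.53% and 7.74% of all genes.

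**Figure D1:**
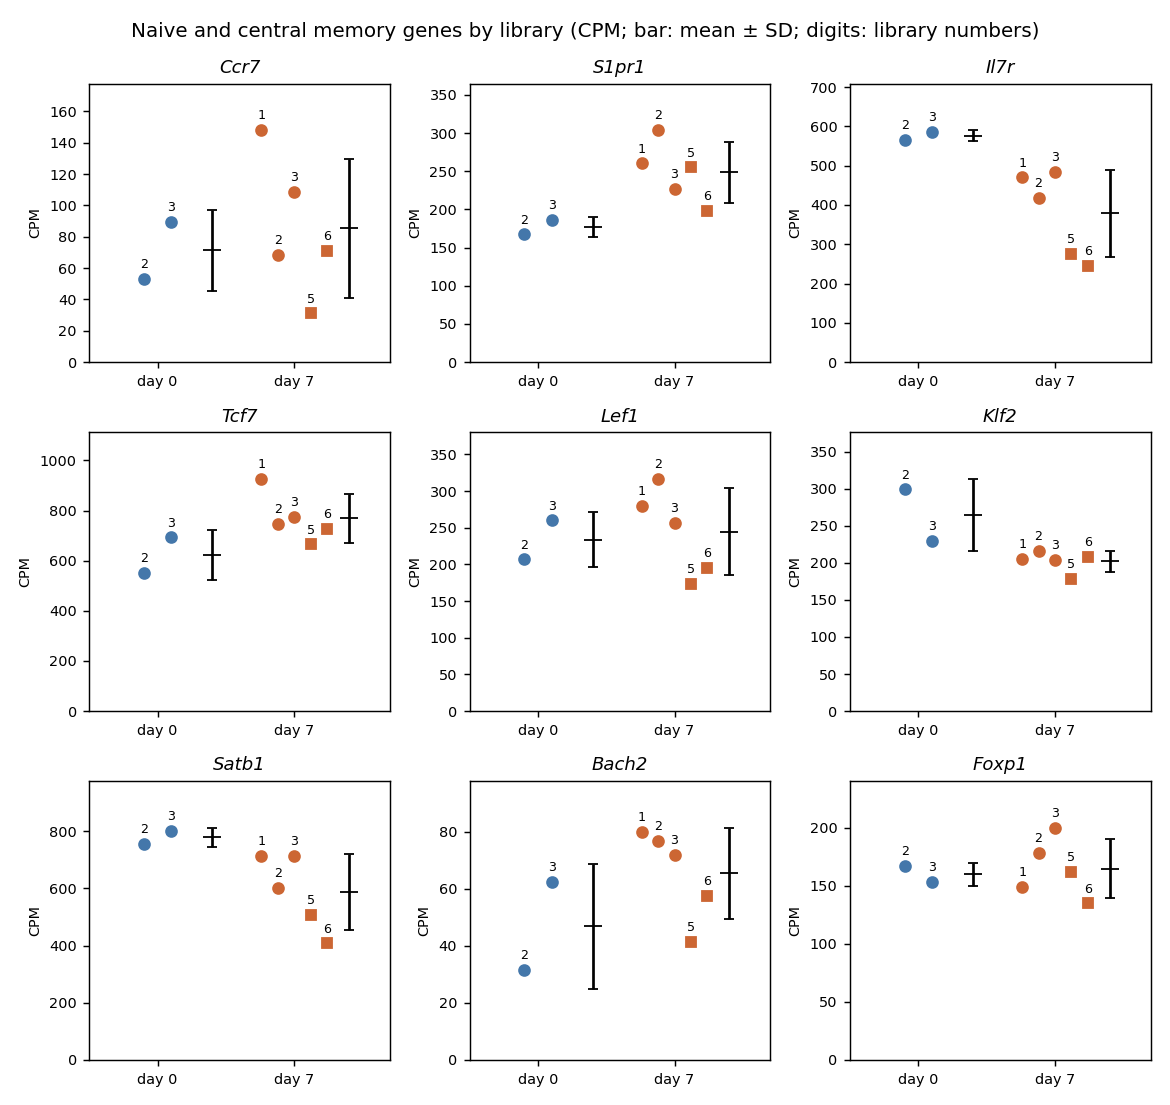
CPM of the 9 genes in each library (y axis, from 0), with day 0 in blue and day 7 in orange, library numbers above the points, day 7 libraries 5 and 6 as squares, and black bars for mean ± SD. S1pr1 lies higher at day 7 without overlap, Il7r, Satb1 and Klf2 lie lower without overlap, and Ccr7 runs from 31.1 to 148 CPM within day 7.

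Of the receptors, S1pr1 (Entrez 13609), through which T cells leave tissue and lymph nodes, was higher in every day 7 library than in either day 0 library. It measured 167 and 186 CPM at day 0 and 260.2, 304, 227, 255 and 198 CPM in day 7 libraries 1, 2, 3, 5 and 6. The group means were 177 ± 13.3 and 249 ± 39.7 CPM, a log2 change of 0.49 ± 0.17 with a 95% interval from 0.13 to 0.85 (edgeR adjusted p = 0.232). With DESeq2 the adjusted p was 0.0447, and over all other alternatives it lay above 0.05. Endothelial cells also express S1pr1 and Klf2. The endothelial list (8 of 10 genes in the table) summed to 66.0 and 109 CPM at day 0 and to 77.7 to 170.3 CPM at day 7. Most of it was Pecam1 (83.3 ± 30.6 and 117 ± 36.5 CPM), which T cells express too. The endothelial cadherin gene Cdh5 was at 0 throughout day 0 as well as in day 7 libraries 1, 2 and 3. It was at 2.13 and 3.53 CPM in libraries 5 and 6. The part of endothelial cells in the S1pr1 and Klf2 values was not tested.

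Il7r (Entrez 16197), the alpha chain of the IL-7 receptor, was the member with the steepest negative log2 change. It stood at 566 and 586 CPM at day 0, while day 7 libraries 1, 2 and 3 had 469.9, 417 and 483 CPM and libraries 5 and 6 had 276 and 245 CPM. The 3 levels do not overlap. Means were 576 ± 14.2 and 378 ± 111 CPM, a log2 change of -0.61 ± 0.26 with a 95% interval from -1.20 to -0.02 (edgeR adjusted p = 0.473). Without a filter on low counts, a setting in which 2.41% of genes were called, Il7r was called lower (edgeR adjusted p = 0.00262). Its log2 change there was -0.60 ± 0.14, so the call came with a smaller standard error and not with a larger change. The NK list sum followed the same steps. It was 743 and 840 CPM at day 0, 425 to 505 CPM in day 7 libraries 1, 2 and 3, and 255 and 256 CPM in libraries 5 and 6. Of its 5 genes, Klrb1c alone made these steps. Klre1 was lower at day 7 (109 ± 8.02 against 55.6 ± 8.55 CPM), but overlapped between libraries 1, 2 and 3 and libraries 5 and 6. Ncr1, Eomes and Klra8 had higher means at day 7 (9.83, 20.7 and 0.973 CPM) than at day 0 (3.34, 5.72 and 0 CPM). The part of the NK list in the Il7r result was not tested. The log2 change of Il7r was -0.35 without day 7 libraries 5 and 6 (edgeR adjusted p = 0.137).

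Ccr7 (Entrez 12775), the chemokine receptor for lymph node entry, varied more within day 7 than between days. Its day 0 libraries had 53.2 and 89.6 CPM, and day 7 libraries 1, 2, 3, 5 and 6 had 148, 68.2, 109, 31.1 and 71.1 CPM. The highest day 7 library was 4.76 times the lowest, the widest such range among the 9 genes, and the day 7 values enclosed both day 0 values. The log2 change of 0.26 ± 0.52 had a 95% interval from -0.93 to 1.44 (edgeR adjusted p = 0.998), wide enough to hold a rise or a fall. Dendritic cells also express Ccr7. Their list (7 of 8 genes in the table) summed to 21.1 and 4.96 CPM at day 0. It summed to 22.8, 5.60, 7.86, 81.0 and 29.3 CPM in day 7 libraries 1, 2, 3, 5 and 6. Most of the library 5 sum was Itgax (57.1 CPM). The part of dendritic cells in the Ccr7 values was not tested.

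Among the transcription factors, Tcf7 (Entrez 21414) had the highest level per kilobase of exon on both days. It measured 551 and 693 CPM at day 0 and 927, 748, 775, 665 and 728 CPM at day 7, so that library 5 alone fell below a day 0 library. The means of 622 ± 100.4 and 768 ± 97.2 CPM gave a log2 change of 0.30 ± 0.13 with a 95% interval from 0.03 to 0.58 (edgeR adjusted p = 0.390). Leaving out day 0 library 2 gave a log2 change of 0.15, and leaving out day 0 library 3 gave 0.49. Lef1 (Entrez 16842), its partner in binding the same DNA motif, stood at 207 and 259.9 CPM at day 0 and at 280.2, 317, 256, 174 and 195 CPM at day 7. Its day 7 values lay on both sides of the day 0 range (log2 change 0.07 ± 0.20, 95% interval from -0.35 to 0.49, edgeR adjusted p = 0.9998). The log2 ratio of Tcf7 to Lef1 in CPM was 1.41 and 1.42 at day 0 and, in the order given above, 1.73, 1.24, 1.60, 1.94 and 1.90 at day 7. The 2 highest ratios were thus those of libraries 5 and 6, where Lef1 was at its lowest.

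Klf2 (Entrez 16598), the zinc finger factor that drives S1pr1, lay lower at day 7 where S1pr1 lay higher, and neither passed the test. It stood at 299 and 230.05 CPM at day 0 and at 205, 216, 204, 179 and 208 CPM at day 7. No day 7 library reached a day 0 library, and the day 7 libraries were close together (202 ± 14.1 CPM, against 265 ± 48.9 CPM at day 0). The log2 change was -0.39 ± 0.16 with a 95% interval from -0.72 to -0.06 (edgeR adjusted p = 0.351), and -0.18 without day 0 library 2. The log2 ratio of S1pr1 to Klf2, which does not depend on library scaling, was -0.84 and -0.31 at day 0 and 0.34, 0.49, 0.15, 0.51 and -0.07 in day 7 libraries 1, 2, 3, 5 and 6. Every day 7 ratio was above both day 0 ratios. This ratio was looked at after the values of both genes were known and carries no test.

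Satb1 (Entrez 20230), which encodes a chromatin organiser abundant in thymocytes and resting T cells, followed Il7r across libraries. It had 755 and 803 CPM at day 0, 714, 601 and 713 CPM in day 7 libraries 1, 2 and 3, and 507 and 408 CPM in libraries 5 and 6. As for Il7r, day 0 was highest and libraries 5 and 6 lowest, with no overlap among the 3 levels. Means were 779 ± 33.6 and 589 ± 133 CPM (log2 change -0.40 ± 0.18, 95% interval from -0.80 to -0.01, edgeR adjusted p = 0.474). Without day 7 libraries 5 and 6 the log2 change was -0.22 (edgeR adjusted p = 0.441).

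Bach2 (Entrez 12014), a repressor that restrains effector differentiation, had 31.4 and 62.3 CPM at day 0 and 79.7, 76.6, 71.8, 41.2 and 57.4 CPM at day 7. Libraries 1, 2 and 3 exceeded both day 0 libraries, whereas libraries 5 and 6 lay between them. The log2 change of 0.48 ± 0.33 (95% interval from -0.21 to 1.16, edgeR adjusted p = 0.647) rested on day 0 library 2, since it was 0.07 without that library and 1.07 without day 0 library 3. B cells also express Bach2. Their list (7 of 7 genes in the table) summed to 0.790 and 11.6 CPM at day 0. At day 7 it summed to 18.8, 28.5 and 42.3 CPM in libraries 1, 2 and 3 and to 12.7 and 15.9 CPM in libraries 5 and 6. Ms4a1 was at 0 throughout day 0. It had 8.06, 7.91 and 7.52 CPM in day 7 libraries 1, 2 and 3, and 0 and 0.0905 CPM in libraries 5 and 6. The part of B cells in the Bach2 values was not tested. Foxp1 (Entrez 108655), a factor that maintains naive T cell quiescence, had the smallest log2 change of the 9 genes. It measured 167 and 153 CPM at day 0 and 149, 178, 199.9, 162 and 135 CPM at day 7, with the day 7 range enclosing the day 0 range. Its log2 change was 0.04 ± 0.19, with a 95% interval from -0.35 to 0.44 (edgeR adjusted p = 0.9998).

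**Figure D2:**
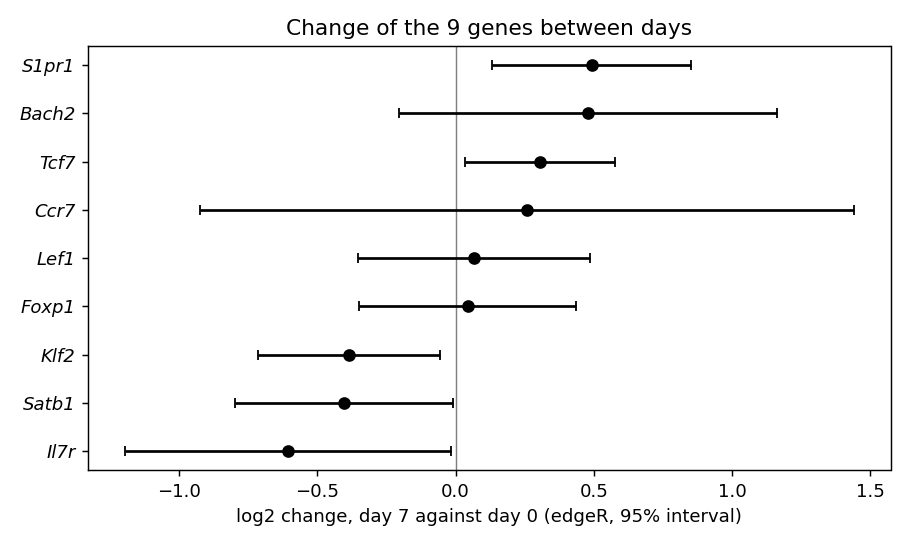
Log2 change of each gene at day 7 against day 0 from edgeR (x axis), with 95% intervals that are not adjusted for the number of genes. The intervals of S1pr1 and Tcf7 lie above 0 and those of Klf2, Satb1 and Il7r below it, but none of the 9 passed after adjustment over 12929 genes.

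Within day 7, 5 of the 9 genes (Lef1, Tcf7, Il7r, Satb1 and Bach2) were lower in both libraries 5 and 6 than in each of libraries 1, 2 and 3, as were 12.8% of all genes tested. None of the 9 was higher in both, as were 14.5% of all genes. Ccr7, Klf2, S1pr1 and Foxp1 overlapped between these libraries. The labels give no difference between the libraries, so this is a description with no test. Beside it, libraries 5 and 6 had the highest CD8 sums (204 and 175 CPM). Their macrophage and granulocyte sums were also highest (248 and 135 CPM, against 9.02 to 27.8 CPM in libraries 1, 2 and 3, with 10 of 10 genes in the table), as were their dendritic cell sums (81.0 and 29.3 against 5.60 to 22.8 CPM). Lower in both than in libraries 1, 2 and 3 were the sums of the NK list (255 and 256 against 425 to 505 CPM), the B cell list (12.7 and 15.9 against 18.8 to 42.3 CPM) and the hepatocyte list (9.85 and 0.0452 against 35.9 to 38.2 CPM). The part of these lists in the lower values was not tested. Cd4 was also highest in libraries 5 and 6, at 913 and 936 CPM against 475 to 591 CPM.

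**Figure D3:**
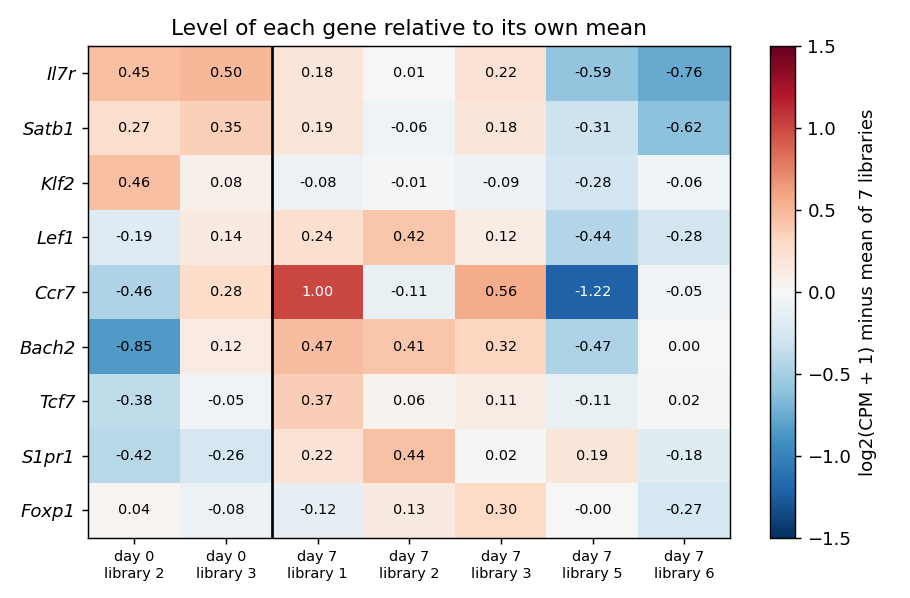
Each gene's log2(CPM + 1) minus its mean over the 7 libraries (colour and printed values), with libraries in columns and a line between days. Il7r and Satb1 step down from day 0 through libraries 1, 2 and 3 to libraries 5 and 6, where Il7r reaches -0.76, while S1pr1 is lowest in the day 0 libraries (-0.42 and -0.26).

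Per kilobase of exon (GENCODE M21 lengths, which may differ from those used for counting), the day 0 order from high to low was Tcf7 at 237 ± 38.2, Klf2 at 143 ± 26.5, Il7r at 124 ± 3.04, S1pr1 at 58.0 ± 4.38, Satb1 at 40.9 ± 1.77, Ccr7 at 36.1 ± 13.0, Lef1 at 26.6 ± 4.27, Foxp1 at 11.6 ± 0.706 and Bach2 at 4.71 ± 2.20 CPM per kb. Among neighbours in this order, Klf2 and Il7r overlapped, as did Satb1 with Ccr7 and Ccr7 with Lef1, and the others did not. At day 7 the order was Tcf7 at 293 ± 37.0, Klf2 at 109.6 ± 7.61, S1pr1 at 81.6 ± 13.0, Il7r at 81.1 ± 23.8, Ccr7 at 43.2 ± 22.5, Satb1 at 30.9 ± 6.99, Lef1 at 27.8 ± 6.74, Foxp1 at 11.98 ± 1.84 and Bach2 at 6.58 ± 1.61 CPM per kb. Neighbours from Klf2 down to Lef1 overlapped at day 7, among them S1pr1 and Il7r, which had not overlapped at day 0. Tcf7 did not overlap with any other member on either day.

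Among the other genes of the egress and homing programme, Itgal, the alpha chain of the integrin LFA-1, was lower in every day 7 library. It had 1713 and 1927 CPM at day 0 and 1351, 1272, 1348, 1380.2 and 1363 CPM at day 7, so that the day 7 libraries lay close together. It fell from 1820.2 ± 151 to 1343 ± 41.7 CPM, a log2 change of -0.44 ± 0.09 (edgeR adjusted p = 0.0110). With day 0 library 3 left out, its adjusted p was 0.407. Of the 18 tested genes of this list, edgeR called Itgal alone, beside 1.54% of all genes. The median log2 change was 0.10, against 0.04 over all genes tested. DESeq2 and edgeR without the low-count filter also called Gnai2, the G protein subunit through which S1PR1 and CCR7 signal, higher (DESeq2 adjusted p = 0.0122). Gnai2 stood at 467 ± 13.6 and 645 ± 92.6 CPM, with no overlap (log2 change 0.47 ± 0.14, edgeR adjusted p = 0.1002). Without day 7 libraries 5 and 6, a setting in which 225 genes were called in all, Itga4, an integrin alpha chain, was called higher (edgeR adjusted p = 0.00202).

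Cd69 encodes a surface protein that binds S1PR1 and removes it from the membrane. It was at 307 and 244 CPM at day 0, whereas day 7 libraries 1, 2 and 3 had 128, 144 and 96.2 CPM and libraries 5 and 6 had 229 and 205 CPM. It was thus lower in every day 7 library, the reverse of S1pr1, but did not pass (log2 change -0.78 ± 0.28, edgeR adjusted p = 0.314). Without day 7 libraries 5 and 6, which held its highest day 7 values, its log2 change was -1.18. Cd69 was called lower in that setting (edgeR adjusted p = 0.00234), which removes those values. It was also called lower without the low-count filter (edgeR adjusted p = 0.00172), where its log2 change was -0.77 ± 0.18.

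**Figure D4:**
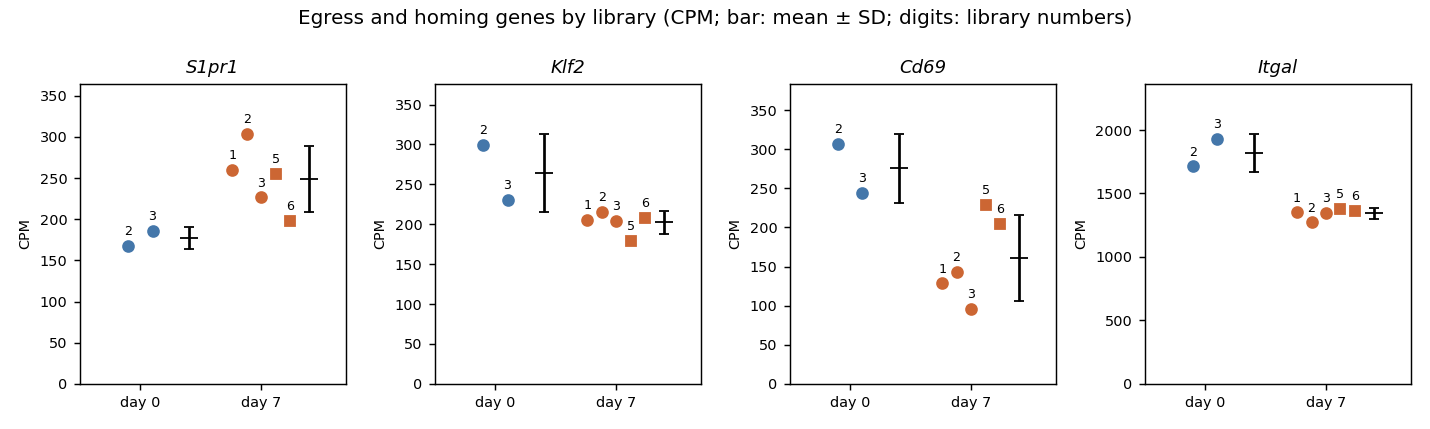
CPM in each library (y axis, from 0) of S1pr1, its transcriptional activator Klf2, its antagonist Cd69, and the integrin gene Itgal, drawn as in the plot of the 9 genes. S1pr1 is higher and Klf2, Cd69 and Itgal are lower in all 5 day 7 libraries than in both day 0 libraries, and of the 4 genes Itgal alone passed the test.

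In the wider list of naive, central memory and quiescence genes, edgeR called 1 of 39 higher and none lower (beside 1.54% of all genes), and the median log2 change was 0.04. DESeq2, which called 6.62% of all genes, also called Foxo3 and Rflnb lower (DESeq2 adjusted p of 0.00398 and 0.0364), and edgeR without the low-count filter called Foxo3 and Txk lower. The gene higher in all 3 fits was Ms4a4b, a membrane protein gene of T cells, which went from 756 ± 15.2 to 1062 ± 58.6 CPM, with groups that did not overlap (log2 change 0.49 ± 0.11, edgeR adjusted p = 0.0140). That call was lost without either day 0 library (adjusted p of 0.184 and 0.102 without libraries 2 and 3). Among 12 tested cofactors of TCF1 and LEF1, edgeR called Tle4, a Groucho-family corepressor, lower and none higher, beside 1.54% of all genes. Tle4 fell from 183 ± 32.8 to 103 ± 19.95 CPM, and 4 of the 12 had positive log2 changes. The log2 change of Tle4 was -0.84 ± 0.21 (edgeR adjusted p = 0.0407). The call of Tle4 was lost in 9 of 16 alternatives, with adjusted p up to 0.515. Of 13 genes of IL-7 signalling, 0 were called by edgeR, beside 1.54% of all genes. Their median log2 change was 0.02, against 0.04 over all genes tested. At an unadjusted p below 0.05, 0 were higher and 2 lower, beside 10.1% of all genes. DESeq2 called Jak1 lower. Il2rg, the partner chain of Il7r, stood at 832 ± 53.7 and 865 ± 40.9 CPM (log2 change 0.06, edgeR adjusted p = 0.994). Of 18 genes of FOXO control by PI3K and AKT, 0 were called by edgeR, beside 1.54% of all genes, with a median of -0.19 against 0.04. At an unadjusted p below 0.05, 0 were higher and 2 lower (Foxo3 and Pik3r1), beside 10.1% of all genes. DESeq2 and edgeR without the low-count filter called this pair lower. Without day 7 libraries 5 and 6, where Sgk1 was highest (129 and 97.0 CPM), edgeR called Sgk1 lower instead. Foxo1, which drives several of the 9 genes, stood at 160 ± 30.9 and 174 ± 16.1 CPM (log2 change 0.12, edgeR adjusted p = 0.969). Of 17 genes listed for effector and memory differentiation, edgeR called Tbx21 (T-bet) lower and none higher, beside 1.54% of all genes. The median was 0.27, against 0.04 over all genes tested. Tox, a factor of chronically stimulated T cells, was higher in every day 7 library (38.6 ± 2.36 against 89.4 ± 35.3 CPM, log2 change 1.21 ± 0.33, edgeR adjusted p = 0.0610). DESeq2 called Tox higher (DESeq2 adjusted p = 0.00328), as did edgeR without the low-count filter, which also called Hif1a higher. Without day 7 libraries 5 and 6 Bhlhe40 was called lower. Tbx21 stood at 309 ± 34.3 CPM on day 0 and 203 ± 22.4 CPM on day 7. Its log2 change was -0.60 ± 0.16 (edgeR adjusted p = 0.0491), and it was not called in 11 of 16 alternatives. Bach2's antagonist Prdm1, which encodes Blimp-1, stood at 54.9 ± 17.1 and 47.0 ± 21.4 CPM.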

How the data were processed

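The authors deposited raw counts per gene in 7 columns, each assigned to a day by its name. Per the submitters' processing notes the tools were featureCounts 1.5.0-p3, HISAT2 2.0.5 and CASAVA 1.8. No source used here gives the genome build, annotation or use of strand, so counts where genes overlap are uncertain. Between 72.4% and 78.1% of counts from 2 to 200 were even, so small counts may stand for fewer fragments. The lowest chi-square per degree of freedom over 21 library pairs was 74.2, so none was a copy of another.

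Genes were filtered (filterByExpr), scaled (TMM) and tested with edgeR 4.0.16 (robust glmQLFit, glmQLFTest) in R 4.3.3, adjusted over 12929 genes. Standard errors are the log2 change over the root of F, and 95% intervals use the test's degrees of freedom. Alternatives used DESeq2 1.42.0, limma 3.58.1 (voom), other scalings and filters, and left-out libraries. On simulated counts with 12277 genes tested, 75% of 4-fold and 30% of 2-fold changes were recovered, with 5 false calls among 110. Changes were given only to genes of at least 20 CPM on average, with no difference in level among day 7 libraries. The changes of all 9 genes were below 2-fold, so these rates do not cover them.

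Members and lists were chosen with earlier results of these data known. Named were all 9 members and up to 3 called genes per direction and list. Cd69, Foxo1, Foxo3, Pik3r1, Il2rg, Jak1, Prdm1, Gnai2, Rflnb, Txk, Tox, Hif1a, Itga4, Bhlhe40, Sgk1, the paralogs and the marker genes were chosen after their values were seen. Some listed genes are not reported here. Other-cell lists not given beside a result are in the closing section.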

Additional observations from a re-analysis of the deposited data

How the results depend on the processing

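Of the 9 genes, 1 was called without a low-count filter (Il7r, lower) and 1 with DESeq2 (S1pr1, higher), and 0 in each of the other 14 alternatives. All genes called numbered 375 without the filter (2.41%), 826 with DESeq2 (6.62%) and 95 with limma-voom, against 199 (1.54%). They numbered 225 without day 7 libraries 5 and 6. With 1 day 7 library left out they numbered 127 to 189 (127 without day 7 library 5). Of the 111 tested genes of the fixed lists, the main fit called 4. The genes of these lists called numbered 11 without the filter, 10 with DESeq2 and 7 without day 7 libraries 5 and 6. They numbered 2 with a minimum mean of 5 CPM, without robust estimation or with limma-voom. With 1 library left out they numbered 1 to 4, with 1 if either day 0 library was the one omitted and 2 if it was day 7 library 1, 2 or 5. Without the filter the standard errors of Il7r, Cd69, Txk and Hif1a were 0.14, 0.18, 0.18 and 0.18. In the main fit they were 0.26, 0.28, 0.29 and 0.35, at log2 changes that hardly differed. Those of Klf2 and Foxo3 were instead larger without the filter (0.18 and 0.19 against 0.16 and 0.18). The cause of these shifts was not tested. With 1 library left out, log2 changes ranged from -0.066 to 0.69 for Ccr7 (negative, at -0.066 and -0.034, without day 0 library 2 or day 7 library 1), from -0.086 to 0.25 for Lef1 (-0.086 and -0.044 without day 0 library 2 or day 7 library 2) and from -0.035 to 0.11 for Foxp1 (-0.0088 and -0.035 without day 0 library 3 or day 7 library 3). The other 6 genes kept their sign in all 16 alternatives. The number of members without overlap was 4 under each scaling (beside 15.2% to 15.4% of all genes), 4 without day 0 library 2 and 6 without library 3 (34.4% and 34.1%), 4 to 5 without 1 day 7 library (19% to 19.6%) and 6 without day 7 libraries 5 and 6 (26.5%), in checks added after the data were seen, each including S1pr1, Klf2, Il7r and Satb1. Where 1 day 0 library is left out, the lone library is assumed to vary like the day 7 group. No paired analysis was possible because the columns do not carry the replicate numbers of the sample titles.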

Other observations

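The paralogs of the TCF/LEF pair were hardly present. Tcf7l1 had 3.49 CPM in day 0 library 2 and at most 0.0380 CPM elsewhere, and Tcf7l2 was at 0 in both day 0 libraries and at 0 to 9.23 CPM at day 7. Bach1, the relative of Bach2, stood at 66.0 and 74.6 CPM at day 0 and at 30.3 to 61.1 CPM at day 7, lower in all 5 day 7 libraries, while Foxp4, a relative of Foxp1, stood at 34.1 and 35.9 CPM and at 41.6 to 75.4 CPM. Neither passed edgeR's test (adjusted p of 0.328 and 0.555). S1pr4, a second sphingosine-1-phosphate receptor of lymphocytes, had 64.4 ± 9.12 and 82.2 ± 20.3 CPM.

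Among 7039 protein-coding genes of at least 20 CPM on average, the gene whose centred log2(CPM + 1) over the 7 libraries lay nearest to each member, by root-mean-square difference, was Ube3a for Lef1 (0.04), Map3k2 for Klf2 (0.04), Mthfd1l for Tcf7 (0.05), Rab10 for Foxp1 (0.06), Babam1 for Bach2 (0.06), Hs3st3b1 for Satb1 (0.07), Rpl28 for S1pr1 (0.10), Zfp518a for Il7r (0.10) and Pithd1 for Ccr7 (0.20). The closest pair within the 9 was Il7r and Satb1 (0.15). With 7 libraries and 7039 genes, close matches are to be found for any gene, and these are descriptions.

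Hepatocyte genes (6 of 6 in the table) summed to 10.1 and 2.93 CPM at day 0. At day 7 they summed to 35.9 to 38.2 CPM in libraries 1, 2 and 3 and to 9.85 and 0.0452 CPM in libraries 5 and 6. Genes of innate lymphoid cells (4 of 4) summed to 48.2 and 61.4 CPM at day 0 and to 49.6 to 89.7 CPM at day 7. They were led by Il17rb at day 0 and by Il1rl1 at day 7, both of which T cells can express. None of the 3 platelet genes was in the table.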
